A study of Homo sapiens with 61 samples.

Results

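JUN, JUNB and JUND, the 3 genes of the human JUN family, were followed through 61 RNA sequencing libraries of neurons in 14 groups. They were taken by symbol, matched through GENCODE 29 to the identifiers of the deposited tables, and are 3 of 58440 genes listed. The cells were made from the established human stem cell line WTC11 (induced pluripotent) and turned into cortical-type neurons by the transcription factor NGN2. All groups of experiment 1 carry an NGN2 cassette switched on by doxycycline, and all groups of experiment 2 also carry the CRISPR interference (CRISPRi) machinery, which silences the gene that a guide RNA (gRNA) points to. At day 14 the microtubule-destabilising drug vincristine (5 nM) or its vehicle DMSO, called untreated here, was given for 16 hours. Experiment 1 has 4 untreated and 4 vincristine libraries of each of wild type (WT), DLK KO, LZK KO and the double KO of both kinases (genes MAP3K12 and MAP3K13). Experiment 2 has 5 and 5 libraries of Control gRNA (scrambled) and of JUN gRNA, and 5 and 4 of ATF2 gRNA. How many clones stand behind each knockout line, how many guides behind each gRNA group and whether replicates are separate cultures are not given in the sources used here. The p-values below therefore measure only the spread between these libraries.

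The JUN family proteins are basic leucine zipper transcription factors, the core of the AP-1 complex, which bind DNA as pairs with each other or with FOS and ATF proteins. JUN is the classic substrate of the JNK kinases, and in injured neurons the kinases DLK and LZK act upstream of JNK. JUN with ATF2 is known to bind sites in the JUN promoter, so JUN can act on its own gene. JUNB is known both to activate and to oppose JUN at its targets, and JUND is usually the member expressed most steadily in resting cells.

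JUN (ENSG00000177606.6) lies on GRCh38 chromosome 1, 58780788 to 58784327, on the minus strand, with an exon length of 3540 bases in the deposited table. JUNB (ENSG00000171223.5) lies on chromosome 19, 12791496 to 12793315, on the plus strand, with 1820 bases. JUND (ENSG00000130522.5) lies on chromosome 19, 18279760 to 18281622, on the minus strand, with 1863 bases. The RefSeq promoter table (GRCh38.p14, 250 bases before to 50 after each start, 35116 promoters) was searched on both strands for 4 motifs that do not contain one another: the AP-1 site TGANTCA, the cyclic AMP response element TGACGTCA, and the proximal (TGACATCA) and distal (TTACCTCA) sites known from the JUN promoter. The matches are shown to place the known JUN sites and the response element of JUND, and since 2 of the motifs were taken from the JUN promoter, finding them there is no result. Each is printed 5′ to 3′ along the gene with the motif in capitals.
JUN proximal site: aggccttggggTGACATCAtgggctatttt
JUN distal site: gcagcggagcaTTACCTCAtcccgtgagcc
JUND response element: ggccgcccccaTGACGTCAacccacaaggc
The first starts 67 bases upstream of the RefSeq start (stretch at chr1:58784096-58784125), the second 186 bases upstream (chr1:58784215-58784244) and the third 200 bases upstream (chr19:18281804-18281833). GENCODE 29 starts JUN 280 bases farther upstream, so both JUN stretches fall inside its first exon there. The motif of the first stretch is in 2.61% of all promoters of the table, that of the second in 0.715% and that of the third in 1.85%. The window of JUNB holds none of the 4 motifs, and TGANTCA, found in 7.71% of promoters, is in none of the 3 windows. A match is a description of letters and not a binding site.

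Total counts per library ran from 8.41 M to 14.6 M reads in experiment 1 (median 10.3) and from 38.9 M to 88.4 M in experiment 2 (median 53.5), and levels are compared within an experiment only. The neuronal markers MAP2, RBFOX3, STMN2, SYP, NEFL, SLC17A6 and SLC17A7 were detected in every library, with summed levels of 5517 to 9137 CPM (counts scaled to a common library size with TMM factors) in experiment 1 and 6180 to 8974 in experiment 2. POU5F1 and NANOG stayed at or under 1.04 CPM, and the summed astrocyte markers GFAP, AQP4 and ALDH1L1 at or under 2.80. LIN28A, an RNA-binding protein of stem cells, reached 60.2 CPM, with its highest levels in double KO. Each targeted transcript was lowered in its own line: MAP3K12 from 91.0 CPM in untreated WT to 26.3 in DLK KO and 19.7 in double KO, MAP3K13 from 99.1 to 31.9 (LZK KO) and 29.6 (double KO), and ATF2 from 129 in Control gRNA to 0.5256 in ATF2 gRNA. MAP3K12 also stood lower in untreated LZK KO (76.1 CPM) and in untreated ATF2 gRNA (88.3 against 119.3 in Control gRNA). WT vincristine replicate 4 stood apart, with a median absolute deviation from its group of 0.26 log2 units against a median of 0.10 over experiment 1. The fitted log2 fold changes of JUN, JUNB and JUND that rest on it are also given without it. Group means, shares, percentages of WT, other genes and correlations are given only with it.

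Within the family, JUND had the highest mean level per length in every group. Levels of different genes are compared here only as CPM per kb of exon length. In untreated Control gRNA, JUND stood at 41.7 ± 3.25 CPM per kb (SD, n = 5), JUN at 25.0 ± 1.97 and JUNB at 4.44 ± 0.758. In untreated WT, JUND stood at 100.2 ± 9.79 CPM per kb (n = 4), JUN at 39.6 ± 2.28 and JUNB at 3.88 ± 0.246. As a share of the 3 genes summed per kb in each library, JUND made up 52.8% (Control gRNA with vincristine) to 90.4% (untreated JUN gRNA) on group average. With vincristine the share of JUN went from 27.6 ± 1.08% to 44.1 ± 2.35% in WT and from 35.2 ± 1.69% to 44.0 ± 0.814% in Control gRNA. JUNB held 1.34% to 8.05% of the sum in 12 groups and 25.0 ± 1.61% and 28.0 ± 2.66% in untreated and vincristine-treated ATF2 gRNA. No p-value is given for a sum or share over members.

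**Figure D1:**
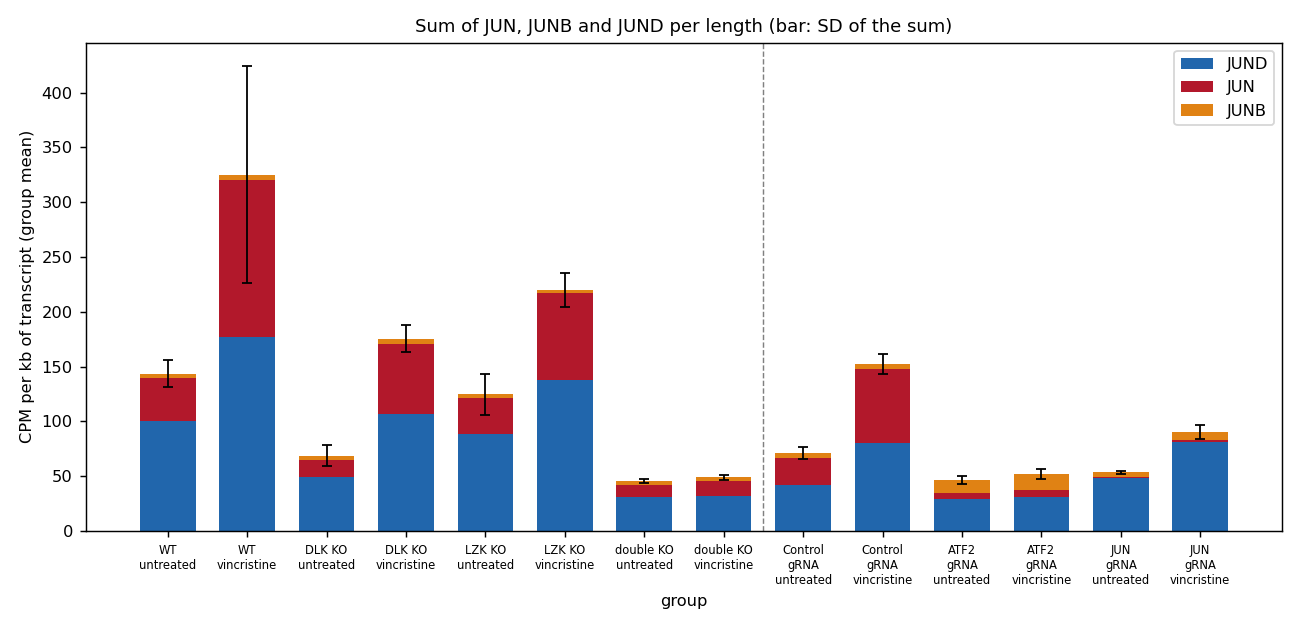
Stacked bars of the mean CPM per kb of exon length of JUND (blue), JUN (red) and JUNB (orange) in the 14 groups, experiment 1 left and experiment 2 right of the dashed line; the black bar is the SD of the sum over 4 or 5 libraries. The sum rose with vincristine from 71.2 to 152.6 in Control gRNA and stood at 46.7 and 51.7 in ATF2 gRNA.

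The JUN guide lowered JUN to a small remainder, JUND was called slightly higher without the drug but not with it, and JUNB was called higher with it but not without. JUN read 83.5, 93.9, 85.8, 97.8 and 81.7 CPM in the untreated Control gRNA libraries and 2.93, 2.73, 2.24, 2.98 and 3.47 in those of JUN gRNA. With vincristine it read 226, 243, 240.3, 255 and 223 CPM in Control gRNA and 7.18, 6.89, 7.74, 5.92 and 4.40 in JUN gRNA. Every JUN gRNA library lay far below every Control gRNA library, at 3.24% of the control mean untreated and 2.71% with vincristine. In the fits, made with edgeR's quasi-likelihood test, the log2 fold change of JUN was -4.96 ± 0.12 (SE) untreated and -5.19 ± 0.12 with vincristine, both called (adjusted p 1.208e-21 and 9.418e-24). A gene is called where its Benjamini-Hochberg adjusted p-value over every gene tested in a comparison is under 0.05. In these 2 comparisons 11.2% and 26.7% of all 20759 genes tested were called, and of the members JUN and JUND in the first and JUN and JUNB in the second.

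JUND read 79.9, 85.8, 74.2, 78.8 and 69.7 CPM in untreated Control gRNA and 92.1, 85.9, 92.4, 89.5 and 91.3 in untreated JUN gRNA. The lowest JUN gRNA library lay just above the highest control library, and the difference was called at a log2 fold change of 0.22 ± 0.06 (95% interval 0.10 to 0.34, edgeR adjusted p 0.01304). Without Control gRNA untreated replicate 5, the lowest of its group, it was 0.18 and not called (edgeR adjusted p 0.05581). With vincristine JUND read 151, 153, 147, 164 and 136 CPM in Control gRNA and 148, 159.7, 161, 150.3 and 136 in JUN gRNA. These libraries overlapped throughout, and the log2 fold change was 0.01 ± 0.06 (95% interval -0.11 to 0.13, not called). The gain untreated and that with vincristine did not differ by a called amount (edgeR adjusted p 0.0926).

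JUNB read 8.66, 10.1, 8.04, 7.23 and 6.45 CPM in untreated Control gRNA and 7.48, 8.62, 7.29, 7.57 and 8.24 in untreated JUN gRNA. The JUN gRNA libraries all lay within the range of the control, with a log2 fold change of -0.04 ± 0.11 (95% interval -0.26 to 0.18, not called). With vincristine JUNB read 7.73, 8.27, 9.42, 10.5 and 8.87 CPM in Control gRNA and 13.2, 12.2, 15.0, 14.7 and 10.7 in JUN gRNA. All 5 JUN gRNA libraries lay above all 5 control libraries, the lowest of them by a small margin (10.67 against 10.50 CPM). JUNB was 147% of the control mean, a log2 fold change of 0.56 ± 0.11 that was called (95% interval 0.34 to 0.77, edgeR adjusted p 4.676e-05). It was called under each of the 17 alternatives, which gave 0.50 to 0.65.

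Whether the guide changed the response to the drug was tested as a difference between effects, and of the 3 members this was called for JUNB alone. JUNB went from a mean of 7.84 to 13.1 CPM there (log2 fold change 0.75 ± 0.11, called) and from 8.09 to 8.96 in Control gRNA (0.15 ± 0.11, not called). The difference between these effects was itself called for JUNB, at 0.60 ± 0.15 (95% interval 0.29 to 0.91, edgeR adjusted p 0.003914), where 15.8% of all genes were called. For JUND the effect was 0.74 ± 0.06 in JUN gRNA and 0.95 ± 0.06 in Control gRNA, both called, and the difference of -0.21 ± 0.08 was not (95% interval -0.38 to -0.04, edgeR adjusted p 0.0926). That difference was called without Control gRNA untreated replicate 2 (-0.25) or vincristine replicate 5 (-0.24), the highest and the lowest of their groups. The small remainder of JUN transcript also responded, by 1.19 ± 0.13 on the log2 scale against 1.42 ± 0.10 in Control gRNA, with a difference of -0.23 ± 0.16 that was not called. Of all genes 15.9% were called for the effect in JUN gRNA and 35.3% in Control gRNA.

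In JUN gRNA, what JUNB and JUND together gained over Control gRNA was less than the JUN that was missing. It was 6.60 CPM per kb untreated and 2.76 with vincristine. Untreated, mean JUN was 24.2 CPM per kb lower in JUN gRNA than in Control gRNA (a difference of -24.2), JUND was 6.73 higher and JUNB differed by -0.136. With vincristine mean JUN differed by -65.3 CPM per kb, JUNB by 2.30 and JUND by 0.460. JUNB and JUND summed stood at 46.1 ± 3.93 CPM per kb in untreated Control gRNA (SD, n = 5) against 52.7 ± 1.21 in JUN gRNA. With vincristine the same sums were 85.5 ± 5.72 and 88.3 ± 5.99. The sum of the 3 genes was 75.3% of the control untreated and 59.0% with vincristine. These are transcript levels, and neither protein nor phosphorylation was measured.

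**Figure D2:**
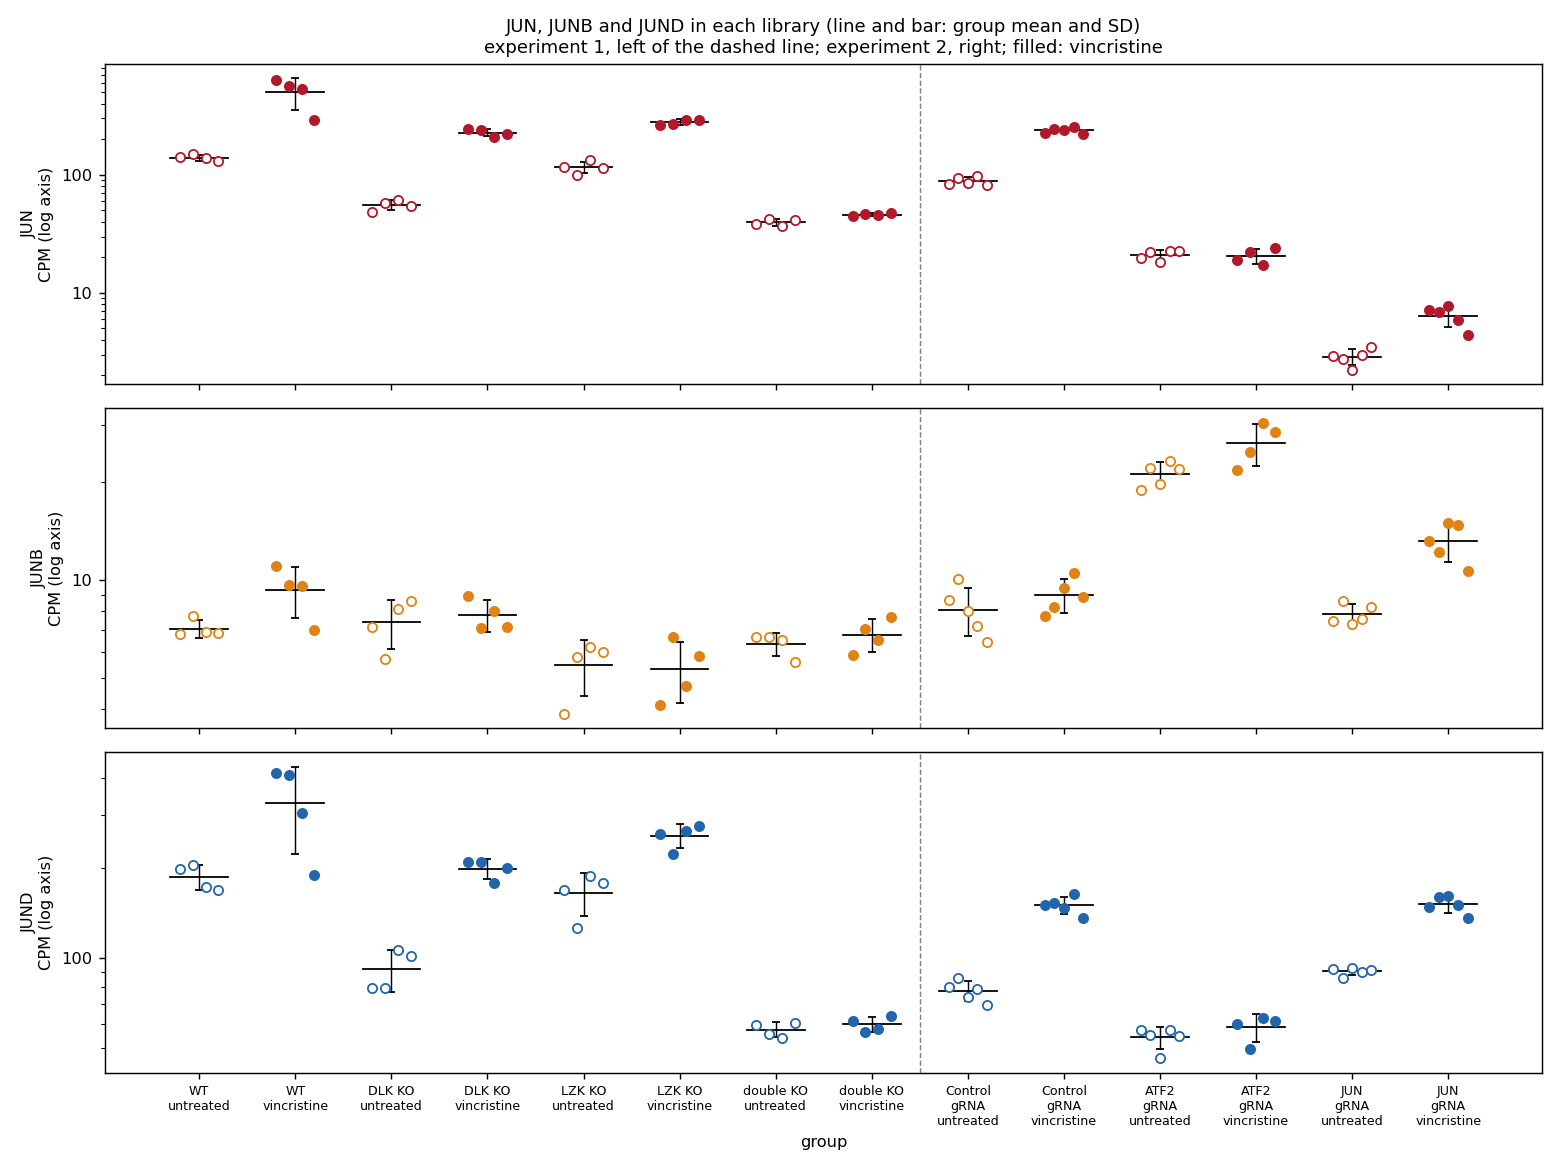
CPM of JUN, JUNB and JUND (log axes) in each library of the 14 groups, with the group mean and SD in black; open points are untreated and filled points vincristine libraries, experiment 1 left and experiment 2 right of the dashed line. JUN in JUN gRNA lies below 8 CPM in every library, JUNB is highest in ATF2 gRNA, and WT vincristine replicate 4 (JUN 289 CPM) lies below the rest of its group.

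The deposited JUNB gene model shares 259 exon bases with HOOK2, a gene on the opposite strand. Whether the counting used strand is not given in the sources used here, so reads there could count for either gene or for neither. HOOK2 stood at 15.1 CPM in vincristine-treated Control gRNA and 14.2 in JUN gRNA (log2 fold change -0.09 ± 0.10, not called), beside 0.56 ± 0.11 for JUNB. In untreated ATF2 gRNA against Control gRNA, HOOK2 differed by 0.20 ± 0.10 (not called) beside 1.40 ± 0.11 for JUNB. HOOK2 had a vincristine effect of 0.41 ± 0.10 in Control gRNA, which was called, where JUNB had 0.15 ± 0.11. In ATF2 gRNA the effects on both genes were alike in size, 0.31 ± 0.10 for HOOK2 and 0.31 ± 0.11 for JUNB, neither called. How many reads of HOOK2 enter the JUNB counts was not tested.

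Silencing ATF2, a partner of JUN, split the family, with JUN and JUND lower and JUNB higher. JUN read 19.6, 22.1, 18.2, 22.5 and 22.5 CPM in untreated ATF2 gRNA and 18.9, 22.2, 17.1 and 23.9 with vincristine. Both sets lay below every Control gRNA library and overlapped each other. JUN was lower than in Control gRNA by a log2 fold change of -2.08 ± 0.10 untreated and -3.53 ± 0.12 with vincristine, both called. JUND read 57.4, 55.4, 46.3, 57.3 and 54.8 CPM untreated and 60.0, 49.5, 63.1 and 61.6 with vincristine, again below every Control gRNA library of the same treatment. Its log2 fold change against Control gRNA was -0.52 ± 0.06 untreated and -1.36 ± 0.07 with vincristine, both called.

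JUNB read 18.9, 22.2, 19.7, 23.3 and 21.9 CPM in untreated ATF2 gRNA and 21.8, 24.7, 30.6 and 28.5 with vincristine. The lowest of these was well above the highest Control gRNA library (10.5 CPM), at 262% and 295% of the control means. The log2 fold change was 1.40 ± 0.11 untreated (95% interval 1.18 to 1.62) and 1.56 ± 0.11 with vincristine (1.33 to 1.79), both called. ATF2 gRNA thus had more JUNB than JUN gRNA had: JUN gRNA against ATF2 gRNA gave -1.44 ± 0.11 untreated and -1.003 ± 0.11 with vincristine, both called and with no overlap of libraries. The same comparison gave JUN -2.89 ± 0.12 and -1.66 ± 0.12, and JUND 0.74 ± 0.06 and 1.37 ± 0.07, all called. The 2 comparisons of ATF2 gRNA with Control gRNA called 39.9% and 42.4% of all genes, and those of JUN gRNA with ATF2 gRNA 34.8% and 32.7%, so calls were common there. Per length, JUNB was 7.22 CPM per kb higher in untreated ATF2 gRNA than in Control gRNA and 9.58 higher with vincristine. JUN and JUND together were lower by more than that, since the sum of the 3 genes was 65.6% of the control untreated and 33.9% with vincristine.

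The marker lists differed between these lines too. The 7 neuronal markers summed to 6736 to 6904 CPM in untreated ATF2 gRNA, 8626 to 8974 in Control gRNA and 8301 to 8763 in JUN gRNA, and the pluripotent markers, mostly LIN28A, to 14.5 to 18.2, 3.12 to 5.14 and 8.82 to 10.2. The progenitor markers SOX2, PAX6 and HES5 summed to 25.2 to 31.0, 18.0 to 21.2 and 11.8 to 17.8 CPM in the same groups. With vincristine, where JUNB was called higher in JUN gRNA than in Control gRNA, the progenitor markers summed to 14.7 to 19.7 CPM in JUN gRNA and 26.4 to 28.9 in Control gRNA. The dividing-cell markers MKI67, TOP2A and CCNB1 summed to 6.12 to 8.64 and 11.5 to 13.0 CPM there, the pluripotent markers to 7.48 to 11.8 and 2.26 to 4.04, and the neuronal markers to 7222 to 7415 and 6953 to 7328. Their part in the family's differences was not tested, and fewer cells of a type and less RNA per cell cannot be told apart in bulk libraries.

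Vincristine raised neither JUN nor JUND by a called amount in ATF2 gRNA. The effect on JUN was -0.03 ± 0.11 on the log2 scale (95% interval -0.26 to 0.19) and that on JUND 0.11 ± 0.07 (-0.02 to 0.24). JUNB went from 21.2 ± 1.84 to 26.4 ± 3.91 CPM (SD, n = 5 and 4), a log2 fold change of 0.31 ± 0.11 that was not called (edgeR adjusted p 0.08047), though it was without ATF2 gRNA vincristine replicate 2, the lowest of its group (0.40, edgeR adjusted p 0.02752). With edgeR 6.10% of all genes were called for the effect in ATF2 gRNA, and 0 of the 3 members were, with 1 member (JUNB) at an unadjusted p under 0.05. DESeq2 called none of them either, and limma voom called JUNB at 0.32. The effect differed from that in Control gRNA by -1.46 ± 0.15 for JUN and -0.84 ± 0.09 for JUND, both called where 20.6% of genes were, and by 0.16 ± 0.15 for JUNB (not called). Between the 2 guides, the effect was larger in JUN gRNA by 1.23 ± 0.17 for JUN and 0.63 ± 0.09 for JUND, both called where 2.83% of genes were, and by 0.44 ± 0.15 for JUNB, which was not called (edgeR adjusted p 0.1314).

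**Figure D3:**
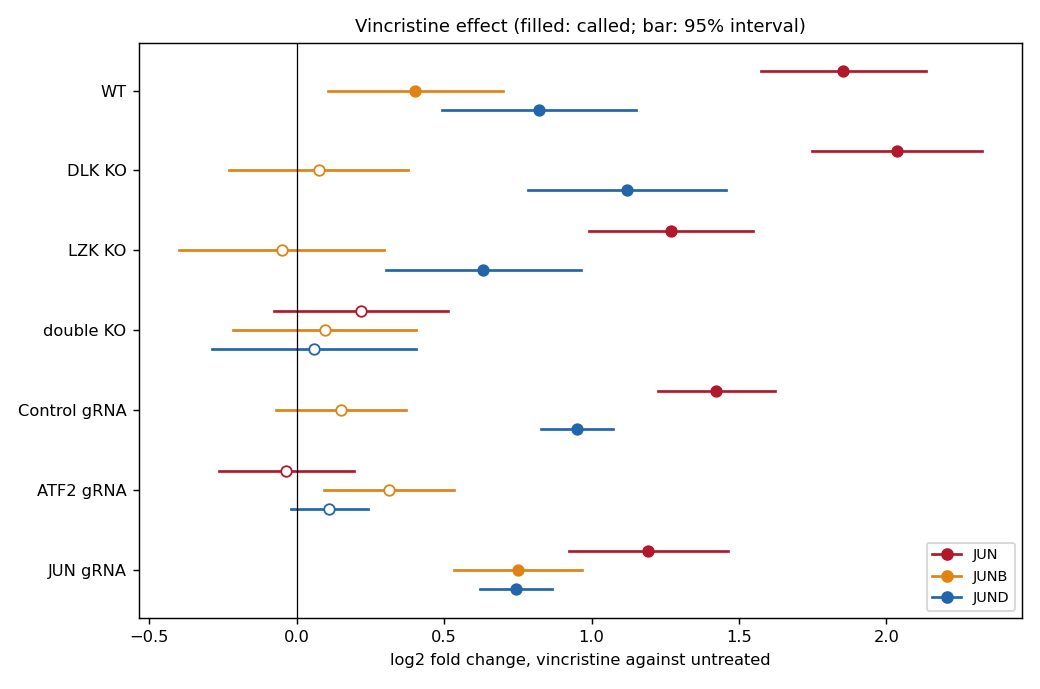
Log2 fold change of JUN (red), JUNB (orange) and JUND (blue) with vincristine in each of 7 lines, with 95% intervals; filled points were called. JUN and JUND stand at 0.22 and 0.06 in double KO and at -0.03 and 0.11 in ATF2 gRNA, none called. JUNB has its highest value, 0.75, in JUN gRNA.

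In experiment 1 the drug raised JUN most, JUND less and JUNB least in WT, and in the absence of both kinases none of the 3 by a called amount. JUN read 140.2, 151, 138 and 131 CPM in untreated WT and 629, 570.4, 538 and 289 with vincristine. Replicate 4 gave the low value, and even it was above every untreated library. The log2 fold change was 1.86 ± 0.14, and 2.05 without that library, both called. JUND read 199, 205, 173 and 169 CPM untreated and 415, 410.1, 305 and 189 with vincristine, so only replicate 4 fell back into the untreated range. Its log2 fold change was 0.82 ± 0.16, and 1.01 without replicate 4, both called.

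JUNB read 6.79, 7.74, 6.88 and 6.86 CPM in untreated WT, from 69 to 98 counts a library, and 11.0, 9.62, 9.56 and 7.01 with vincristine. Its log2 fold change of 0.40 ± 0.15 was called by a narrow margin (95% interval 0.10 to 0.70, edgeR adjusted p 0.03458). Without replicate 4 of the vincristine group it was 0.51. The call was lost without any 1 of the other 3 vincristine libraries or without untreated replicate 1, 3 or 4 (values 0.32 to 0.39). In WT 30.2% of all 18235 genes tested were called, so 3 called members of 3 is to be read against many calls.

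The single knockouts kept the effect on JUN and JUND. In DLK KO JUN read 48.2, 57.9, 60.5 and 54.4 CPM untreated and 242, 237, 208 and 221 with vincristine, and JUND 79.2, 79.2, 106 and 102 against 209, 209.5, 178 and 199.7. Neither gene's libraries overlapped between treatments, with log2 fold changes of 2.04 ± 0.14 and 1.12 ± 0.16, both called, where 6.53% of genes were. In LZK KO JUN read 117, 100.4, 133 and 114 CPM against 266, 269, 292 and 293, and JUND 168, 126, 189 and 179 against 261, 222, 267 and 276. The groups were again apart, and the log2 fold changes of 1.27 ± 0.14 and 0.63 ± 0.16 were both called, where 3.88% of genes were. The call of JUND was lost without LZK KO untreated replicate 1 (0.64) or 2 (0.53), or vincristine replicate 3 (0.61) or 4 (0.60). JUNB read 7.17, 5.68, 8.13 and 8.61 CPM untreated and 8.93, 7.08, 8.04 and 7.15 with vincristine in DLK KO, and 3.87, 5.77, 6.20 and 6.00 against 4.10, 6.65, 4.71 and 5.81 in LZK KO. The treatments overlapped in both lines (0.07 ± 0.15 and -0.05 ± 0.17, not called).

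In double KO JUN read 38.4, 41.9, 36.5 and 41.5 CPM untreated and 44.4, 46.6, 46.1 and 47.0 with vincristine. All 4 vincristine libraries lay above the untreated ones, but the log2 fold change of 0.22 ± 0.14 was not called (95% interval -0.08 to 0.51, edgeR adjusted p 0.8019). In a fit of only these 8 libraries it was 0.23 and called. JUND read 59.9, 55.8, 54.1 and 60.8 CPM against 61.6, 56.7, 57.7 and 64.1, and JUNB 6.65, 6.66, 6.54 and 5.59 against 5.85, 7.05, 6.505 and 7.70. Both overlapped (0.06 ± 0.17 and 0.10 ± 0.15). With edgeR 0 of 3 members were called, 0 had an unadjusted p under 0.05, and DESeq2 and limma voom called none. Of all genes 0.0658% were called.

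The effect was smaller in double KO than in each other line for JUN. The difference was -1.64 ± 0.20 against WT, -1.82 ± 0.20 against DLK KO and -1.05 ± 0.20 against LZK KO on the log2 scale, each called, where 19.4%, 1.14% and 0.916% of genes were. For JUND it was -0.76 ± 0.23 and -1.06 ± 0.23, both called, and -0.57 ± 0.23 against LZK KO, not called (95% interval -1.05 to -0.10). The call against WT was lost without WT vincristine replicate 1 or 2 (-0.64 for both), and that against DLK KO without DLK KO vincristine replicate 2 (-1.02). Without WT vincristine replicate 4 the differences from WT were -1.83 for JUN and -0.95 for JUND. For JUNB no difference in effect was called in experiment 1, with values from -0.45 (95% interval -0.91 to 0.01, LZK KO minus WT) to 0.15 (-0.32 to 0.61, double KO minus LZK KO). Without WT vincristine replicate 4 the 3 differences from WT were -0.43 (DLK KO), -0.56 (LZK KO) and -0.41 (double KO), none called.

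The single knockouts were closer to WT. In DLK KO the effect on JUN differed from that in WT by 0.18 ± 0.19 (95% interval -0.21 to 0.57), and by -0.01 without WT vincristine replicate 4, neither called, where 19.4% of genes were. In LZK KO it was smaller than in WT by -0.59 ± 0.19, called at an edgeR adjusted p of 0.03996, where 12.4% of genes were. That call was lost when any 1 of 12 of the 16 libraries was left out, with values from -0.60 to -0.46, and kept at -0.78 without WT vincristine replicate 4. The effect on JUND differed from that in WT by 0.30 ± 0.23 in DLK KO and -0.19 ± 0.23 in LZK KO, neither called. Without WT vincristine replicate 4 these differences were 0.11 and -0.38, and over all libraries left out in turn they ran from 0.11 to 0.42 and from -0.38 to -0.060.

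**Figure D4:**
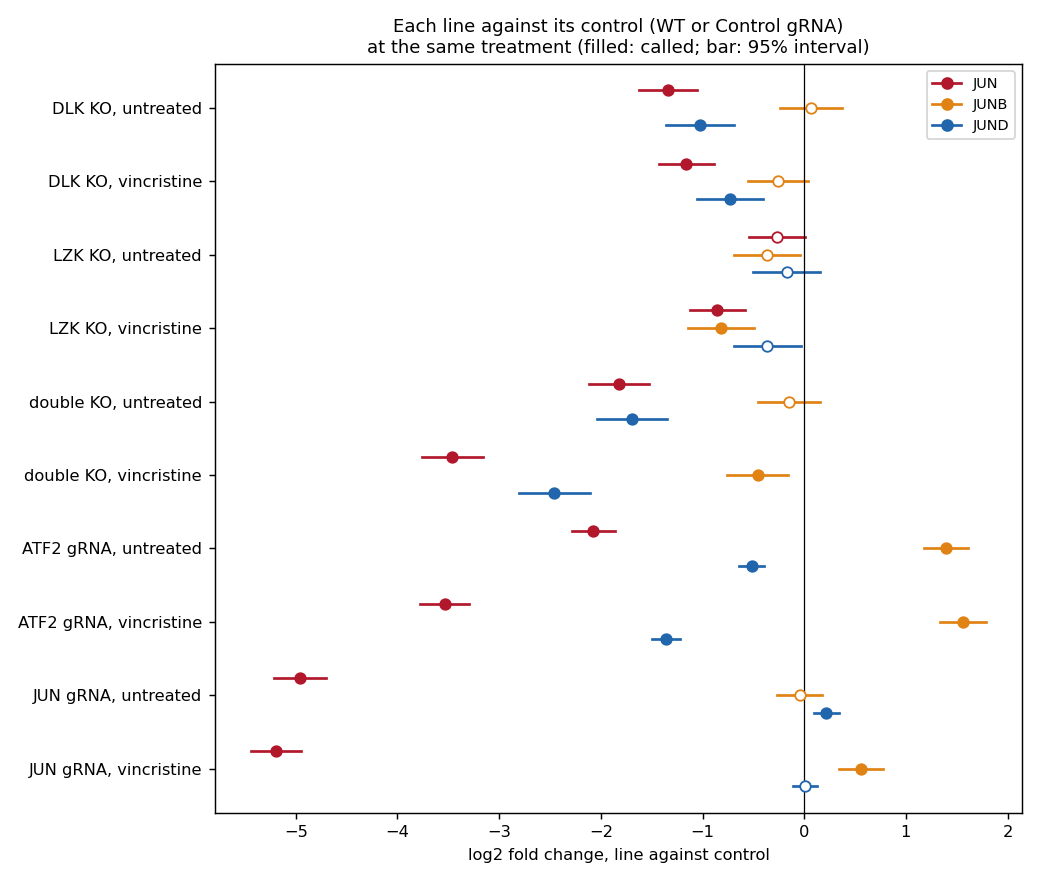
Log2 fold change of JUN (red), JUNB (orange) and JUND (blue) in each line against WT (experiment 1) or Control gRNA (experiment 2) at the same treatment, with 95% intervals; filled points were called. JUN and JUND are lower in DLK KO, double KO and ATF2 gRNA, and JUNB is at 1.40 and 1.56 in ATF2 gRNA.

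Before any drug, JUN and JUND were already lower in the lines without DLK. JUN in untreated DLK KO was 39.5% of WT (log2 fold change -1.34 ± 0.14) and JUND 49.0% (-1.03 ± 0.16). In untreated double KO they were 28.3% (-1.82 ± 0.14) and 30.9% (-1.70 ± 0.17). All 4 differences were called and the libraries did not overlap. JUNB was not called in either line (0.07 ± 0.15 and -0.15 ± 0.15). Its libraries in untreated double KO (up to 6.66 CPM) and untreated LZK KO (up to 6.20) also all lay below those of WT (6.79 and higher). How many of all genes had libraries without overlap was not counted. In untreated LZK KO none of the 3 was called by edgeR, with JUN at -0.27 ± 0.14, JUNB at -0.37 ± 0.16 and JUND at -0.17 ± 0.16, and 1 of them at an unadjusted p under 0.05. DESeq2 called none there, and limma voom called JUN (-0.28) and JUNB (-0.59). Without LZK KO untreated replicate 3 edgeR called JUNB too (-0.47). The antisense gene HOOK2 was called lower in the same comparison (-0.40 ± 0.12). These comparisons called 34.5% (DLK KO), 33.9% (LZK KO) and 45.7% (double KO) of all genes.

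With vincristine the gap between double KO and WT was wider. JUN was 9.08% of WT (log2 fold change -3.46 ± 0.15), JUND 18.2% (-2.46 ± 0.17) and JUNB 72.8% (-0.46 ± 0.15), all called. In DLK KO JUN was 44.8% (-1.16 ± 0.13) and JUND 60.3% of WT (-0.73 ± 0.16), both called, and JUNB was at -0.26 ± 0.15, not called, though it was at -0.37 without WT vincristine replicate 4. In LZK KO JUN was 55.3% (-0.85 ± 0.13) and JUNB 57.1% of WT (-0.82 ± 0.16), both called, and JUND was at -0.36 ± 0.16, not called, though it was at -0.55 without WT vincristine replicate 4. Without that library the values against WT were -3.65 for JUN, -2.65 for JUND and -0.56 for JUNB in double KO. They were -1.35 for JUN and -0.92 for JUND in DLK KO, and -1.04 for JUN and -0.92 for JUNB in LZK KO, all called. Of all genes 55.6%, 42.0% and 42.7% were called in double KO, DLK KO and LZK KO. Beside JUNB, the antisense gene HOOK2 was lower too, by -0.30 ± 0.12 in vincristine-treated double KO and -0.38 ± 0.12 in LZK KO, both called, and the share of its reads in the JUNB counts was not tested.

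The lines of experiment 1 also differed in markers. The dividing-cell markers MKI67, TOP2A and CCNB1 summed to 10.5 to 12.3 CPM in untreated WT, 16.9 to 18.1 in DLK KO, 59.4 to 67.6 in LZK KO and 22.7 to 29.8 in double KO. The pluripotent markers summed to 2.11 to 2.77, 6.24 to 9.95, 12.0 to 18.1 and 51.7 to 58.0 CPM, the progenitor markers to 22.8 to 26.7, 7.48 to 10.2, 19.0 to 31.9 and 14.4 to 16.3, and the neuronal markers to 7479 to 8044, 5517 to 6163, 7804 to 8417 and 8226 to 8424. With vincristine the sums are given for WT, DLK KO, LZK KO and double KO in this order. Dividing-cell markers summed to 9.98 to 14.0, 15.6 to 21.6, 74.8 to 87.1 and 31.9 to 35.1 CPM. Pluripotent markers summed to 0.97 to 1.44, 4.76 to 8.11, 14.4 to 17.5 and 53.7 to 61.2. Progenitor markers summed to 20.5 to 27.8, 10.5 to 11.75, 22.0 to 27.7 and 14.3 to 15.6. Neuronal markers summed to 7264 to 7687, 5960 to 6285, 8765 to 9137 and 8431 to 9025. The part of these markers in the levels of JUN, JUNB and JUND was not tested.

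Ordered by mean level, JUN in experiment 1 ran from untreated double KO (39.6 CPM) through vincristine-treated double KO, untreated DLK KO, LZK KO and WT, to vincristine-treated DLK KO, LZK KO and WT (507). Of these 7 steps the libraries overlapped only between untreated LZK KO and WT and between vincristine-treated LZK KO and WT. The order was the same for JUND, from 57.6 to 329.8 CPM, with overlap at 4 steps, within double KO, between untreated LZK KO and WT, between untreated WT and vincristine-treated DLK KO, and between vincristine-treated LZK KO and WT. JUNB ran only from 5.32 CPM in vincristine-treated LZK KO to 9.31 in vincristine-treated WT, with overlap at every step. In experiment 2 JUN ran from 2.87 CPM in untreated JUN gRNA to 238 in vincristine-treated Control gRNA, and only the ATF2 gRNA groups overlapped as neighbours. JUNB ran from 7.84 CPM in untreated JUN gRNA to 26.4 in vincristine-treated ATF2 gRNA, with overlap among the 3 lowest groups and between the 2 highest. JUND ran from 54.2 CPM in untreated ATF2 gRNA to 151 in vincristine-treated JUN gRNA, with overlap between the ATF2 gRNA groups and between the 2 highest.

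The family's partners and regulators were read from a list of 27 genes, of which 22 were tested in experiment 1 and 23 in experiment 2. FOSB, FOSL1, BATF and BATF2 were tested in neither. With vincristine 8 were called higher and 2 lower in WT, against 15.7% and 14.5% of all genes, and the list's median log2 fold change was 0.05. ATF3, a stress-induced partner of JUN, had the largest change (3.97 ± 0.11), followed by FOS, the classic AP-1 partner (2.91 ± 0.16), CREB5 (2.58 ± 0.11), JDP2, a repressing partner (2.56 ± 0.18), and FOSL2 (1.83 ± 0.27). In untreated WT they stood in this order at 14.1, 2.12, 48.5, 4.155 and 1.37 CPM. FOS and FOSL2 thus started from few reads, 18 to 33 and 10 to 23 counts a library. In DLK KO 7 of 22 were called, against 6.53% of all genes, and in LZK KO 4 of 22, against 3.88%, all of them higher. In double KO 0 were called by edgeR, 0 had an unadjusted p under 0.05 and DESeq2 called 0, while a fit of only these 8 libraries called 2.

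In Control gRNA 10 of the list were called higher and 4 lower with vincristine, against 17.1% and 18.1% of all genes (median 0.12). In ATF2 gRNA 3 were called higher and 2 lower, against 1.88% and 4.22% of all genes, and in JUN gRNA 9 higher and 1 lower, against 7.58% and 8.31%. The medians there were -0.04 and 0.02. Of the partners and related factors, ATF3, FOS, FOSL2, CREB5 and JDP2 were called higher in JUN gRNA, and ATF2, ATF7 and BATF3 were not. The others called higher there were MAP3K13, MAP2K7, MAPK8IP1 and SPAG9. Several of these genes rose by less than in Control gRNA. ATF3 rose by 1.42 ± 0.07 on the log2 scale in JUN gRNA and 3.48 ± 0.07 in Control gRNA, a difference of -2.07 ± 0.10 that was called. FOSL2 (difference -1.998 ± 0.32), CREB5 (-1.24 ± 0.12) and JDP2 (-0.62 ± 0.13) had smaller effects too, and so did the kinase MAP3K13 (-0.30 ± 0.09), the JNK scaffold MAPK8IP1 (-0.56 ± 0.08) and FBXW7, a ubiquitin ligase subunit that marks JUN for degradation (-0.27 ± 0.08). These are the 7 of 23 called for that difference, all lower, where 15.8% of all 20759 genes were called (1808 higher and 1465 lower). FOS rose by 1.46 in both lines (SE 0.17 in JUN gRNA and 0.18 in Control gRNA), and its difference was not called.

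Among partners of JUN, the guides had opposite or unequal effects without the drug. FOS was higher in untreated JUN gRNA (0.81 ± 0.18) and in ATF2 gRNA (1.44 ± 0.18), both called against Control gRNA. FOSL2 was lower in JUN gRNA (-1.25 ± 0.24) and higher in ATF2 gRNA (0.78 ± 0.22), both called, at means of 0.699, 2.88 and 1.70 CPM in JUN gRNA, ATF2 gRNA and Control gRNA. CREB5, an ATF2 relative, was lower in both, by -0.34 ± 0.09 and -2.38 ± 0.10. In all, 6 of 23 list genes were called in untreated JUN gRNA (2 higher, 4 lower), against 11.2% of all genes. In untreated ATF2 gRNA 18 were called (8 higher, and 10 lower including the silenced ATF2 itself), against 39.9%. The JNK kinases MAPK8, MAPK9 and MAPK10 had log2 fold changes with vincristine from -0.18 to 0.16 over the 7 lines. MAPK9 was called lower in WT and Control gRNA, and MAPK8 in ATF2 gRNA and JUN gRNA. Apart from the drug, MAPK8, MAPK10 and MAP3K12 were called lower in untreated ATF2 gRNA than in Control gRNA. They stood at 285.5 against 377.3, 105.9 against 146.8 and 88.3 against 119.3 CPM. MAP2K7 was called higher there, and MAPK9, MAP3K13 and MAP2K4 were not called. MAPK10 was called lower in untreated JUN gRNA as well. The part of these kinases in the levels of JUN and JUND was not tested. ATF2 itself, at 141 CPM in untreated WT, stood at 71.0 in untreated DLK KO (-0.99, called) and at 148 in double KO (0.07, not called). Its part in the lower JUN and JUND of these lines was not tested.

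**Figure D5:**
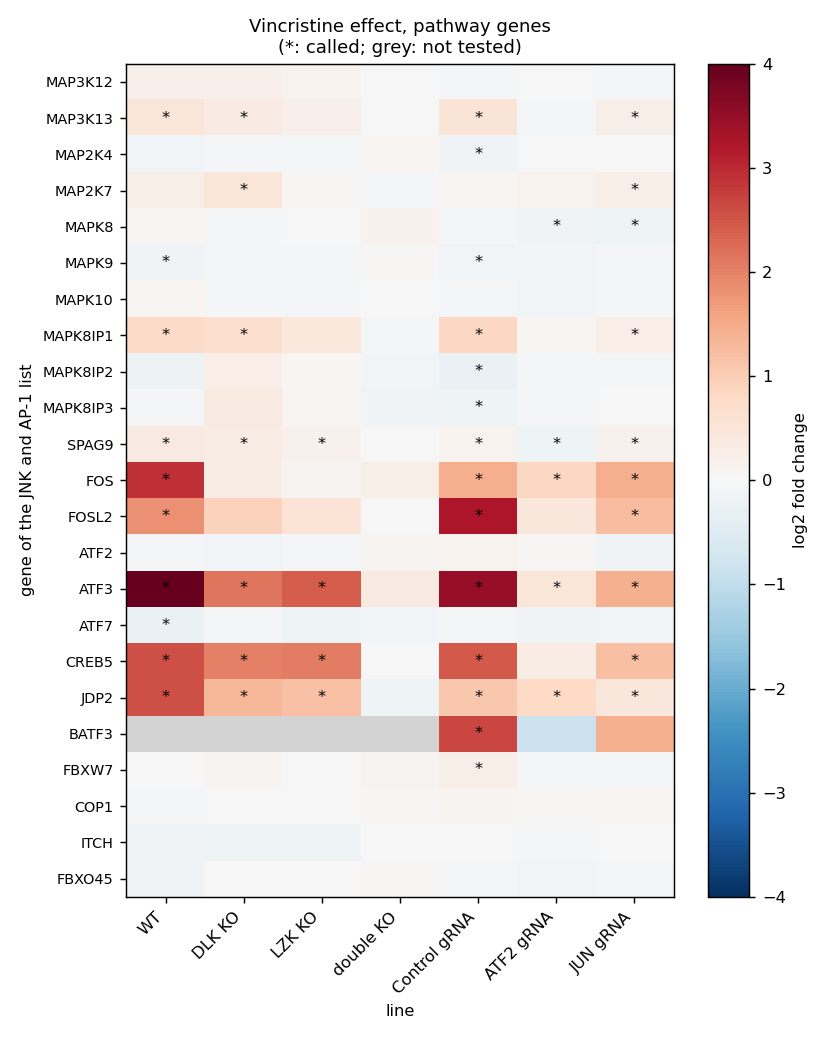
Log2 fold change with vincristine of the 23 tested genes of the JNK and AP-1 list (rows) in 7 lines (columns), from blue (lower) to red (higher); a star marks a call and grey a gene not tested. ATF3 stands at 3.97 in WT and 3.48 in Control gRNA, and the double KO column holds no star.

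The genes most like each member across libraries were found among 12338 genes with a mean log2 CPM of at least 1, by the smaller of 2 Pearson correlations of log2 CPM, over the 32 libraries of experiment 1 and those of experiment 2. The libraries share groups and treatments, so these are descriptions without p-values. For JUN, taken without the 10 JUN gRNA libraries, they were SH2D3C (0.99 and 0.98, n = 32 and 19), DUSP8 (0.97 and 0.99) and HELZ2 (0.97 and 0.97). For JUND they were CAMTA1 (0.97 and 0.94, n = 32 and 29), ATP8B2 (0.94 and 0.94) and DENND5A (0.96 and 0.93). For JUNB the likeness was weaker, with VWA5B2 (0.75 and 0.93), NPTX2 (0.73 and 0.78) and SEL1L3 (0.73 and 0.72).

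The JUN gRNA libraries, left out of that choice for JUN, show how its 3 companions stood where JUN was lowered. SH2D3C did not pass the test against untreated Control gRNA (-0.07 ± 0.10) and neither did DUSP8, which encodes a phosphatase of JNK (0.00 ± 0.07), while HELZ2 was lower (-0.82 ± 0.09, called). With vincristine all 3 were lower than in Control gRNA, by -0.55 ± 0.10, -0.36 ± 0.07 and -1.71 ± 0.09, each called. Of all 20759 genes tested 5548 were called there, 2543 of them lower. JUN was at -4.96 and -5.19 in the same comparisons.

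Of 17 genes listed within 500 kb of JUN, 5 were tested, at 80.7 to 271.7 kb from it, so these values do not bear on the sequence next to the guide's target. In untreated JUN gRNA 1 of them was called, MYSM1 at 0.46 ± 0.11, against 11.2% of all genes. With vincristine 1 was called, DAB1 at 0.37 ± 0.04, against 26.7%. Both were higher than in Control gRNA.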

How the data were processed

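Poly(A) RNA was sequenced from the 61 libraries described above, and the deposited tables hold raw read counts per gene. Per the submitters' processing notes, reads were handled with cutadapt 3.4, STAR and featureCounts of Subread 2.0.1 on GRCh38 with GENCODE 29. The strand setting of the counting is not given in the sources used here. Of 58440 identifiers, 56992 matched GENCODE 29 with their version and 58320 received a symbol. Totals of 8.41 M to 14.6 M counts (experiment 1) and 38.9 M to 88.4 M (experiment 2) set the counting error. No 2 libraries of a group differed by as little as sampling noise (chi-square per degree of freedom at least 1.55).

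From these counts, edgeR 4.0.16 in R 4.3.3 gave quasi-likelihood tests (robust, TMM, its default filter by group, 1 mean per group, no covariate, two-sided) in 1 fit per experiment, over 18235 and 20759 genes and 27 comparisons. SEs were derived from the F statistics. Alternatives were DESeq2 1.42.0, limma 3.58.1 voom, RLE factors, other filters, fewer groups, a replicate block and each library left out. Replicate numbers were not taken to pair libraries, since in no comparison did all same-numbered libraries deviate together (correlations over 0.1).

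The members, the list of 27 pathway genes and the markers were chosen with earlier results of these data known. Named genes are the members, that list, genes within 500 kb of JUN and the 3 genes most like each member (prior count 2). HOOK2 was added for its overlap with JUNB after its values were seen. The code was tested on simulated data.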

Additional observations from a re-analysis of the deposited data

Results flagged for a closer look

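In 3 of 42 sets of libraries (a member in a group), 1 library lay far from the others by Dixon's criterion, and chance alone gives about 1 in 20. JUNB read 7.74 CPM in WT untreated replicate 2, above 6.79 to 6.88 in the other 3. JUNB read 5.59 CPM in double KO untreated replicate 4, below 6.54 to 6.66 in the others. JUND read 46.3 CPM in ATF2 gRNA untreated replicate 3, below 54.8 to 57.4 in the others.

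The vincristine effect differed between lines by a called amount (edgeR interaction test) in 11 cases. For JUN the difference on the log2 scale was -0.59 for LZK KO minus WT, -1.64 for double KO minus WT, -1.82 for double KO minus DLK KO, -1.05 for double KO minus LZK KO, -1.46 for ATF2 gRNA minus Control gRNA and 1.23 for JUN gRNA minus ATF2 gRNA. For JUND it was -0.76 for double KO minus WT, -1.06 for double KO minus DLK KO, -0.84 for ATF2 gRNA minus Control gRNA and 0.63 for JUN gRNA minus ATF2 gRNA. For JUNB it was 0.60 for JUN gRNA minus Control gRNA, the only called difference of that gene. All 5 treated JUN gRNA libraries lay above all treated Control gRNA libraries, the closest at 10.67 against 10.5 CPM. How many of all genes separated in this way was not counted. Several of these differences share libraries and are not independent of each other.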

How the results depend on the processing

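Of the 81 comparisons of a member, 59 kept direction and call under every alternative run and 22 did not, and the causes were not tested. Without a filter on low counts, the calls were lost for JUNB with vincristine in WT (0.39), JUND in LZK KO (0.63) and the effect differences of JUN in LZK KO minus WT (-0.57) and JUND in double KO minus WT (-0.76). The difference of JUND in JUN gRNA minus Control gRNA was then called (-0.25), as with voom (-0.24) or only the groups compared (-0.22). With the replicate block the JUN difference of LZK KO minus WT was -0.57 and no longer called, and no other call of the 81 changed. Only the groups compared gave no call for JUNB in WT (0.39) and that JUN difference (-0.56), but calls for JUN with vincristine in double KO (0.23), JUND in double KO minus LZK KO (-0.57) and JUN in untreated LZK KO (-0.28), and 2 called pathway genes in double KO. Voom called JUN (-0.28) and JUNB (-0.59) in untreated LZK KO, JUNB in treated DLK KO (-0.36), JUND in treated LZK KO (-0.49), JUNB with vincristine in ATF2 gRNA (0.32) and JUNB in JUN gRNA minus ATF2 gRNA (0.52).

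Leaving out 1 library changed the sign of a value 17 times, within the ranges given below. Values that changed sign under another method, filter or choice of groups were called under neither setting. They were JUNB with vincristine in LZK KO (voom 0.020), JUN in ATF2 gRNA (voom 0.040), JUNB in untreated JUN gRNA (voom 0.031) and JUND in treated JUN gRNA (no filter -0.016, a mean of 1 CPM -0.014, only the groups compared -0.0036).

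Leaving out 1 library gave 0.32 to 0.51 for JUNB in WT, 0.53 to 0.72 for JUND in LZK KO, -0.035 to 0.14 for JUNB in DLK KO, -0.18 to 0.058 for JUNB in LZK KO, -0.11 to 0.050 for JUN and 0.24 to 0.40 for JUNB in ATF2 gRNA. Differences ran from -0.011 to 0.29 for JUN in DLK KO minus WT, -0.78 to -0.46 for JUN in LZK KO minus WT, -0.95 to -0.64 for JUND in double KO minus WT, -0.050 to 0.13 for JUNB and -1.14 to -0.99 for JUND in double KO minus DLK KO, and -0.25 to -0.18 for JUND in JUN gRNA minus Control gRNA. Against the control they ran from -0.47 to -0.23 for JUNB in untreated LZK KO, -0.37 to -0.17 for JUNB in treated DLK KO, -0.55 to -0.24 for JUND in treated LZK KO, -0.11 to 0.044 for JUNB and 0.18 to 0.26 for JUND in untreated JUN gRNA, and -0.025 to 0.041 for JUND in treated JUN gRNA.

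Not divided by length, JUN was 50.8% and 59.9% of the family in untreated and treated Control gRNA and 2.84% and 3.74% in JUN gRNA. JUNB rested on as few as 34 counts a library in experiment 1, which limits what could be seen there. Whether reads of HOOK2 enter the JUNB counts cannot be told from the tables, and transcript levels say nothing of protein.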
